A study of Arabidopsis thaliana with 9 samples.

Results

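The 9 genes described here are SQUAMOSA PROMOTER BINDING PROTEIN-LIKE (SPL) genes of Arabidopsis thaliana, namely SPL2 (AT5G43270), SPL3 (AT2G33810), SPL4 (AT1G53160), SPL5 (AT3G15270), SPL6 (AT1G69170), SPL9 (AT2G42200), SPL10 (AT1G27370), SPL11 (AT1G27360) and SPL15 (AT3G57920). They were taken from the 33602 gene models of each library by these AGI identifiers, and all 9 were present and tested. The RNA came from the aerial parts of 21-day-old plants, all in the Col0 background, grown on soil at 21 °C and 65% humidity with 8 h of light and 16 h of darkness. There were 3 libraries of plants labelled CUC2gm-4, 3 of cuc2-3 and 3 of WT. The study's description calls both non-wild-type lines knock-outs of CUC genes, and CUC2 encodes a NAC transcription factor of organ boundaries and leaf margin teeth. The labels give neither the nature of each allele nor whether the libraries of a genotype came from separate plants, so p-values measure the spread between these libraries, which may be technical.

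SPL proteins bind DNA through the SBP domain and drive the passage from juvenile to adult growth, which in Arabidopsis shows as heteroblasty, the change of leaf shape, serration and leaf hairs along the rosette. In young plants the small RNA miR156 and its relative miR157 hold most SPL transcripts down, and their decline with age lets SPL activity increase. SPL9, with its close relative SPL15, also bears on leaf margins, because in age-dependent leaf complexity SPL9 protein was reported to compete with CUC proteins for binding to TCP proteins. All of the 9 are known miR156 targets.

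The sequences that define the group are the small RNA and its site in each transcript, read from RefSeq (TAIR10.1). The mature miR156a-5p, shared by 6 annotated loci, and miR157a-5p, shared by 3, are shown with bases 2 to 8, the seed, in capitals. miR157a-5p has an extra U at its 5′ end, so its seed pairs 1 base further towards the 3′ end of the target.
ath-miR156a-5p: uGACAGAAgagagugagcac
ath-miR157a-5p: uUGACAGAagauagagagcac

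The best ungapped match to the reverse complement of miR156a-5p was sought in each SPL transcript. The 9 sites are shown 5′ to 3′, with the bases opposite the miR156 seed in capitals.
SPL2, SPL6, SPL9, SPL10, SPL11 and SPL15: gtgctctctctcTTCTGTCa
SPL3: ttgcttactctcTTCTGTCa
SPL4: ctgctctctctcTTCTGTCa
SPL5: ccgctctctctcTTCTGTCa

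The 20-base site was identical in 6 of the genes and differed from full pairing at 1 base there, at 2 in SPL3 (1 of them a G:U pair) and SPL4, and at 3 in SPL5. The bases opposite the seed were the same in all 9. In the 6 genes with the identical site it lay in the coding sequence of the last exon, as in SPL9 (chr2:17589066-17589085, plus strand, exon 3 of 3), SPL15 (chr3:21444834-21444853, minus strand, exon 3 of 3) and SPL2 (chr5:17360758-17360777, minus strand, exon 5 of 5). In SPL3 (chr2:14305878-14305897, plus strand), SPL4 (chr1:19807090-19807109, plus strand) and SPL5 (chr3:5140598-5140617, minus strand) it lay in the 3′ UTR. The SPL4 site is not in the gene model that the count files name but in another RefSeq transcript of the gene. Over 31464 genes, only the longest RefSeq transcript of each was searched, so sites in other transcripts were not counted. In that search 8 genes had a site with at most 1 difference, namely 6 of the members and the near-identical pair SPL13A and SPL13B. A site with at most 2 was found in 10, among them 8 of the members. RefSeq also annotates MIR156i and MIR156j on the opposite strand of SPL4 and SPL9, each over the 20 bases of the target site, and neither locus is a row of the count files.

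**Figure D1:**
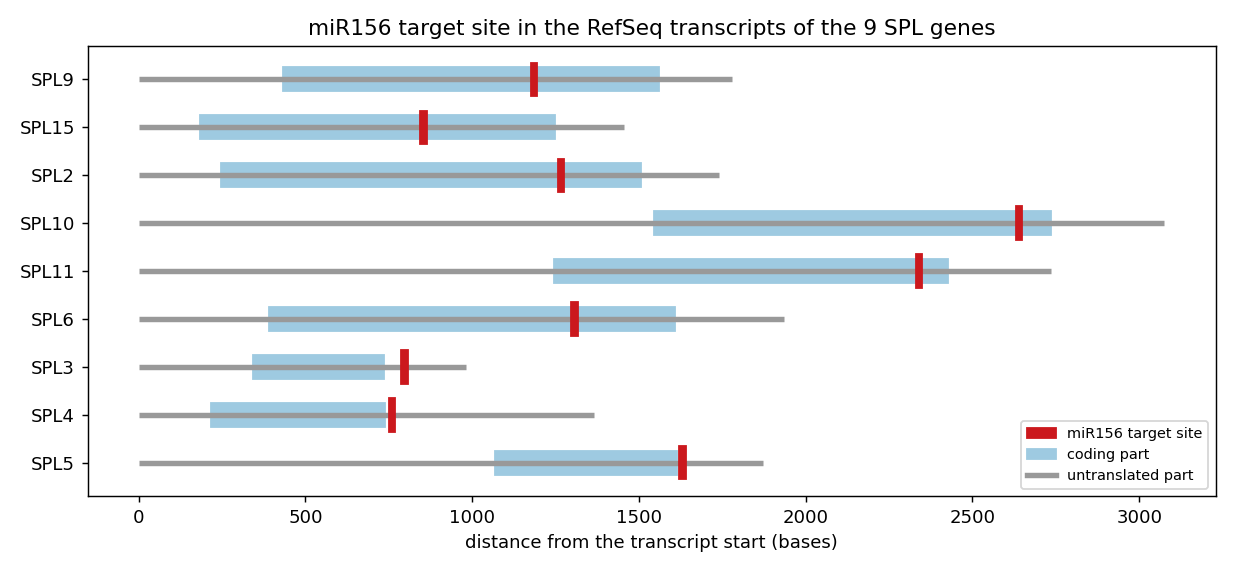
Position of the miR156 site in the RefSeq transcript of each SPL gene, in bases from the transcript start, with coding sequence and UTRs drawn to scale. The site lies in the coding part of 6 transcripts and in the 3′ UTR of SPL3, SPL4 and SPL5.

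Library totals ran from 17361433 to 27734410 counts, and the 9 SPL genes together took 1211 to 2177 of them. A count of 3 corresponds to 0.107 to 0.187 normalised CPM, the counts scaled to the library total and TMM factors, and SPL counts lay between 17 and 649, so every gene was detected in every library. CUC2 had 779, 656 and 1062 counts in the libraries labelled CUC2gm-4, 38, 11 and 23 in cuc2-3 and 13, 53 and 55 in WT. The libraries labelled CUC2gm-4 thus did not lack CUC2 transcript, though counts do not show whether it is functional. CUC2 was higher in CUC2gm-4 than in WT by 4.12 on the log2 scale (SE 0.42, edgeR quasi-likelihood test with Benjamini-Hochberg adjusted p = 0.00768). In cuc2-3 against WT it was −0.95 (SE 0.46, unadjusted p = 0.0632, edgeR quasi-likelihood test with Benjamini-Hochberg adjusted p = 1), and the groups overlapped through WT 1 alone, with at most 1.75 normalised CPM in cuc2-3, and 0.811 in WT 1, 2.96 in WT 2 and 2.33 in WT 3. The library WT 1 also stands apart at the meristem gene STM, with 31 counts against 344 and 479 in the other WT libraries. The 5 green shoot markers together had 24659 to 35642 normalised CPM in CUC2gm-4, 34006 to 46610 in cuc2-3 and 30175 to 62760 in WT. The 5 root markers had 109 to 120 in CUC2gm-4, 134 to 187 in cuc2-3 and 131 to 184 in WT, nearly all from PYK10, and the 4 floral organ markers had at most 0.782 in any library. The part of these differences in the results below was not tested. In these whole-shoot samples, fewer cells of a kind and less RNA per cell cannot be told apart.

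On the scale of normalised CPM per kilobase of the model length in the files, SPL2 and SPL9 stood highest and SPL4 and SPL5 lowest. The mean over the 9 libraries was 14.8 normalised CPM per kb for SPL2, 12.1 for SPL9 and 6.91 for SPL3. It was 3.73 for SPL10, 3.47 for SPL15, 2.89 for SPL6, 2.86 for SPL11, 2.19 for SPL4 and 2.17 for SPL5. SPL2 lay above SPL9 in 9 of 9 libraries, SPL9 above SPL3 in 8, with WT 3 the exception, and SPL3 above SPL10 in 9. Lower in the order neighbours traded places: SPL10 exceeded SPL15 in 5 libraries, SPL15 exceeded SPL6 in 7, SPL6 exceeded SPL11 in 7, SPL11 exceeded SPL4 in 6 and SPL4 exceeded SPL5 in 5. SPL2 thus exceeded 59.5% of the 18291 genes tested on this scale, SPL9 53.5%, SPL4 12.9% and SPL5 12.8%. Model lengths in the files are shorter than the RefSeq transcript for 8 of the 9, most for SPL5, with 897 against 1872 bases, and SPL11, with 1504 against 2735. How reads outside the model were treated is not known, so the order of levels holds for these lengths only.

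**Figure D2:**
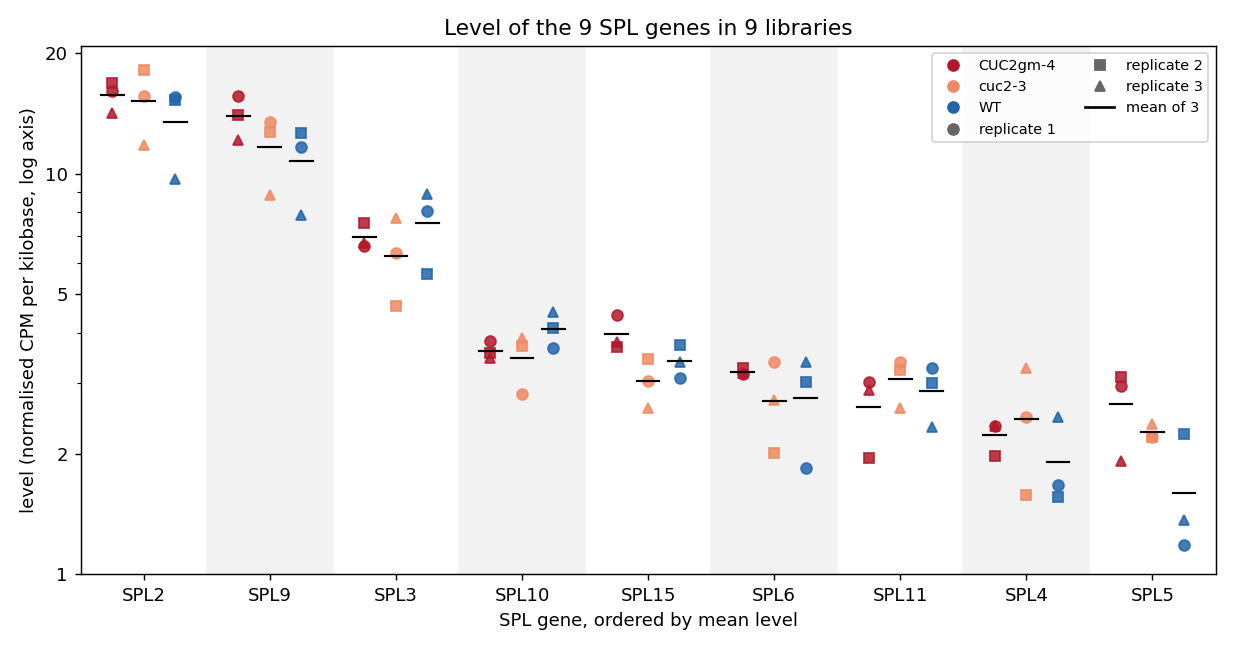
Level of each SPL gene (normalised CPM per kilobase, log axis) in the 9 libraries, CUC2gm-4 left, then cuc2-3 and WT; points are libraries, with a shape for each replicate number, and black lines the mean of 3. SPL2, SPL9 and SPL3 stand above the other 6, and the genotypes overlap within most genes.

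No SPL gene passed the test between genotypes. By the quasi-likelihood test of edgeR, adjusted by Benjamini-Hochberg over all genes at 0.05, 0 of 9 passed in CUC2gm-4 against WT, where 0.0164% of all genes did. The count was also 0 of 9 in cuc2-3 against WT, beside 0.0219% of genes, and 0 of 9 in CUC2gm-4 against cuc2-3, beside 0.0164%. With the replicate number as a block it stayed at 0 of 9 in each, beside 0.191% of genes in CUC2gm-4 against WT, 0.0219% in cuc2-3 against WT and 0.0383% in CUC2gm-4 against cuc2-3. DESeq2 and limma-voom likewise called 0 of 9 in each. At an unadjusted p under 0.05 there was 1 of 9 in CUC2gm-4 against WT, SPL5, beside 6.48% of all genes. There was none in cuc2-3 against WT, beside 1.96%, and none in CUC2gm-4 against cuc2-3, beside 3.73%; with the block there was still none, beside 3.73% of genes in cuc2-3 against WT and 7.39% in CUC2gm-4 against cuc2-3.

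Differences of the members between genotypes were small. The median log2 fold change of the 9 was 0.22 in CUC2gm-4 against WT, beside −0.0025 over all genes, with 6 of 9 above 0 against 49.6% of genes. It was 0.10 in cuc2-3 against WT, beside −0.0077, with 5 of 9 above 0 against 48.3% of genes. It was 0.15 in CUC2gm-4 against cuc2-3, beside 0.00044, with 7 of 9 above 0 against 50.1% of genes. The comparisons share libraries, so these are not separate lines of evidence. All 3 same-numbered pairs were higher for SPL2, SPL5 and SPL9 in CUC2gm-4 against WT, as in 17.2% of genes, and for none lower, as in 16% of genes. In cuc2-3 against WT they were all higher for SPL2, SPL4, SPL9 and SPL11, as in 10.3% of genes, and all lower for SPL3, SPL10 and SPL15, as in 11.1%. Some of these pairs were near ties on the log2 scale. Pair 1 differed by 0.0065 for SPL2 and −0.022 for SPL15, and pair 2 by 0.016 for SPL4 and 0.0036 for SPL9. In CUC2gm-4 against cuc2-3 all 3 pairs were higher for SPL9 and SPL15, as in 13.9% of genes, and for none lower, as in 15.2%. The libraries of the 2 genotypes overlapped for all 9 in CUC2gm-4 against WT (5.87% of genes lay apart and higher, 5.74% apart and lower) and in cuc2-3 against WT (2.87% and 2.65%). The 95% intervals, unadjusted, reached a 2-fold difference for SPL5 in CUC2gm-4 against WT, for SPL4 and SPL5 in cuc2-3 against WT, and for none in CUC2gm-4 against cuc2-3.

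Among the adult-leaf pair, SPL9, which regulates leaf initiation and adult traits, had 23.4, 21.0 and 18.2 normalised CPM in CUC2gm-4, 20.2, 19.0 and 13.3 in cuc2-3 and 17.5, 19.0 and 11.9 in WT. The 3 genotypes overlapped, and the lowest library in each was number 3. Its log2 fold change was 0.38 (SE 0.22) in CUC2gm-4 against WT, 0.12 (SE 0.22) in cuc2-3 against WT and 0.26 (SE 0.22) in CUC2gm-4 against cuc2-3, with 3 of 3 same-numbered pairs higher in each. Pair 2 of cuc2-3 against WT was higher by only 0.0036 on the log2 scale. With the replicate number as a block, CUC2gm-4 against WT was 0.40 (SE 0.15, unadjusted p = 0.020, edgeR quasi-likelihood test with Benjamini-Hochberg adjusted p = 0.367), so that 2 of 9 lay under 0.05 unadjusted, beside 10.9% of genes. The other was SPL5.

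SPL15, the close paralogue of SPL9, had 6.11, 5.08 and 5.24 normalised CPM in CUC2gm-4, 4.18, 4.74 and 3.59 in cuc2-3 and 4.24, 5.13 and 4.66 in WT. It was the only member whose libraries did not overlap in a comparison, CUC2gm-4 lying above cuc2-3, as did 4.82% of all genes. The log2 fold change was 0.40 (SE 0.21, 95% interval −0.06 to 0.86, edgeR quasi-likelihood test with Benjamini-Hochberg adjusted p = 1) in CUC2gm-4 against cuc2-3, 0.23 (SE 0.21) in CUC2gm-4 against WT and −0.17 (SE 0.21) in cuc2-3 against WT. In RefSeq all 1455 exonic bases of SPL15 overlap exons of AT3G57910 on the opposite strand. AT3G57910 had 3.91 normalised CPM on average, and its own log2 fold change was 0.084 in CUC2gm-4 against cuc2-3. The libraries were stranded, but the sources used here do not say whether counting used strand. Whether reads of SPL15 and AT3G57910 were kept apart is therefore not known.

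SPL2, SPL10 and SPL11 form a group of related genes acting in the shape of rosette and cauline leaves. SPL2 had 26.1, 27.3 and 23.0 normalised CPM in CUC2gm-4, 25.3, 29.5 and 19.1 in cuc2-3 and 25.1, 24.7 and 15.7 in WT, so that again number 3 was lowest in every genotype. SPL10 had 10.4, 9.72 and 9.46 in CUC2gm-4, 7.67, 10.1 and 10.6 in cuc2-3 and 9.98, 11.2 and 12.3 in WT. SPL11 had 4.54, 2.94 and 4.34 in CUC2gm-4, 5.10, 4.85 and 3.91 in cuc2-3 and 4.93, 4.52 and 3.51 in WT. The genotypes overlapped for all 3 genes. In CUC2gm-4 against WT the log2 fold changes were 0.22 (SE 0.22) for SPL2, −0.18 (SE 0.18) for SPL10 and −0.13 (SE 0.25) for SPL11. In cuc2-3 against WT they were 0.17 (SE 0.22) for SPL2, −0.24 (SE 0.18) for SPL10 and 0.098 (SE 0.25) for SPL11. In CUC2gm-4 against cuc2-3 they were 0.051 (SE 0.22) for SPL2, 0.061 (SE 0.18) for SPL10 and −0.22 (SE 0.25) for SPL11. None exceeded the spread between libraries by the test above. SPL10 and SPL11 are neighbours on chromosome 1 that are transcribed towards each other, with 1088 bases between their RefSeq spans on opposite strands.

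SPL6, which has been linked to immunity in Arabidopsis, had 5.79, 5.98 and 5.82 normalised CPM in CUC2gm-4, 6.20, 3.67 and 4.98 in cuc2-3 and 3.37, 5.52 and 6.18 in WT. CUC2gm-4 was the tightest of the genotypes and lay within the range of both others. Its log2 fold change in CUC2gm-4 against WT was 0.22 (SE 0.27), and −0.012 without WT 1, the lowest library. It was −0.025 (SE 0.27) in cuc2-3 against WT and 0.24 (SE 0.27) in CUC2gm-4 against cuc2-3.

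SPL3, SPL4 and SPL5 encode short proteins that act mainly in flowering. SPL3 had 6.47, 7.38 and 6.59 normalised CPM in CUC2gm-4, 6.20, 4.57 and 7.61 in cuc2-3 and 7.92, 5.52 and 8.72 in WT. SPL4 had 2.01, 1.69 and 2.01 in CUC2gm-4, 2.11, 1.35 and 2.81 in cuc2-3 and 1.44, 1.34 and 2.12 in WT. All overlapped, and in CUC2gm-4 against WT the log2 fold changes were −0.12 (SE 0.24) for SPL3 and 0.22 (SE 0.34) for SPL4. In cuc2-3 against WT they were −0.27 (SE 0.24) for SPL3 and 0.36 (SE 0.34) for SPL4. In CUC2gm-4 against cuc2-3 they were 0.15 (SE 0.24) for SPL3 and −0.15 (SE 0.33) for SPL4. An annotated lncRNA on the other strand covers 955 of the 981 exonic bases of SPL3 and had 2 to 27 counts. SPL3 itself had 81 to 214 counts, so the 2 rows did not hold the same reads.

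SPL5 had the largest fold of the members. Its level was 2.65, 2.79 and 1.72 normalised CPM in CUC2gm-4, 1.97, 1.98 and 2.13 in cuc2-3 and 1.06, 2.01 and 1.23 in WT, from 17 to 66 counts a library. WT 1 and WT 3 were lowest, and WT 2 lay above CUC2gm-4 3. The log2 fold change was 0.73 (SE 0.33, edgeR quasi-likelihood test with Benjamini-Hochberg adjusted p = 0.769) in CUC2gm-4 against WT, higher in 3 of 3 pairs, 0.50 (SE 0.33) in cuc2-3 against WT and 0.23 (SE 0.32) in CUC2gm-4 against cuc2-3. Leaving out each library in turn, CUC2gm-4 against WT ran from 0.56 without WT 1 to 1.05 without WT 2, and cuc2-3 against WT from 0.32 without WT 1 to 0.82 without WT 2. SPL5 shares 477 of its 1872 exonic bases with AT3G15260 on the other strand, a gene of 22.1 normalised CPM whose log2 fold change in CUC2gm-4 against WT was 0.22 (SE 0.16).

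**Figure D3:**
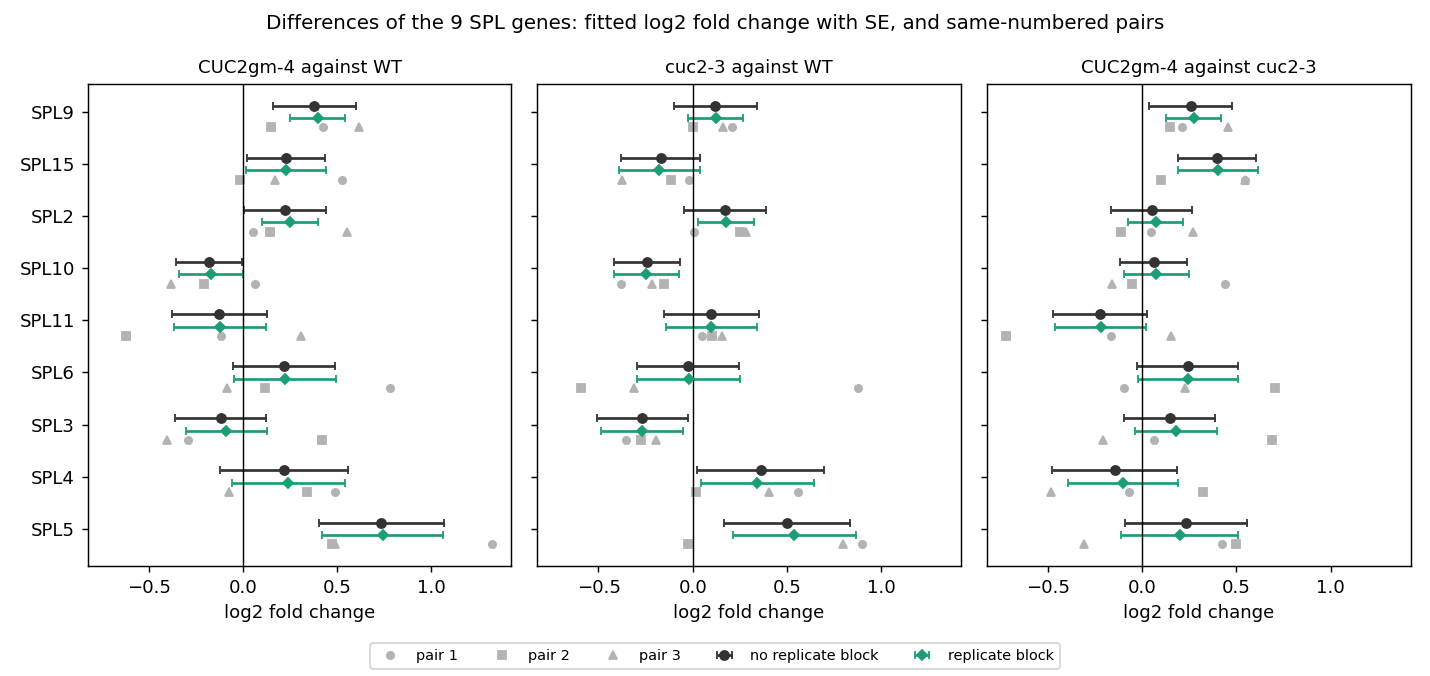
Log2 fold change of each SPL gene in the 3 comparisons, CUC2gm-4 against WT, cuc2-3 against WT and CUC2gm-4 against cuc2-3, with SE, without and with the replicate number as a block; grey marks are the same-numbered pairs. SPL5 in CUC2gm-4 against WT is the largest at 0.73, and the block narrows the SE of SPL9 and SPL2.

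SPL9 and SPL2 were lowest at replicate number 3 in every genotype. Over the 3 genotypes SPL9 averaged 14.4 ± 3.33 normalised CPM at number 3, against 20.4 ± 2.98 at number 1 and 19.7 ± 1.18 at number 2 (SD, n = 3 each). SPL2 averaged 19.3 ± 3.66 at number 3, against 25.5 ± 0.513 at number 1 and 27.2 ± 2.37 at number 2. Neither passed the edgeR quasi-likelihood test of the replicate number, with Benjamini-Hochberg adjusted p = 0.0958 for SPL9 and 0.113 for SPL2, and 0 of 9 members did, beside 4.36% of all genes. Unadjusted, 2 of 9 lay under 0.05, beside 23.9% of genes. Of the CIN-type TCP genes, whose products restrain leaf margin growth, TCP3 did pass, at 27.3 ± 9.59 at number 3 against 60.1 ± 12.6 at number 1 and 46.4 ± 4.14 at number 2 (edgeR quasi-likelihood test, Benjamini-Hochberg adjusted p = 0.0443). Among the cell type markers RBCS1A, a subunit of Rubisco, passed too, with 8194 ± 564 normalised CPM at number 3, against 15545 ± 4080 at number 1 and 10358 ± 3232 at number 2 (edgeR quasi-likelihood test, Benjamini-Hochberg adjusted p = 0.0397). The other green shoot markers did not pass by that test (adjusted p = 0.0561 for CA1, 0.0583 for RCA, 0.176 for LHCB2.1 and 0.27 for CAB1). CA1 was also lowest at number 3. RCA, CAB1 and LHCB2.1 were instead lowest at number 2, with 2344 against 2458 at number 3, 18520 against 18645 and 1384 against 1819. All 5 green shoot markers together had 31215 normalised CPM in CUC2gm-4 3, 34006 in cuc2-3 3 and 30175 in WT 3. Each was below number 1 of its genotype, at 35642 in CUC2gm-4, 46610 in cuc2-3 and 62760 in WT. Number 2 had 24659 in CUC2gm-4, below number 3 there. It had 41178 in cuc2-3 and 34304 in WT, above number 3, so number 3 was not lowest in every genotype. STM did not pass, with 23.8 ± 6.78 at number 3, against 9.78 ± 6.82 at number 1 and 22.4 ± 5.36 at number 2 (edgeR quasi-likelihood test, Benjamini-Hochberg adjusted p = 0.102). The part of these markers in the SPL9 and SPL2 levels was not tested, and the meaning of a replicate number is not in the labels.

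**Figure D4:**
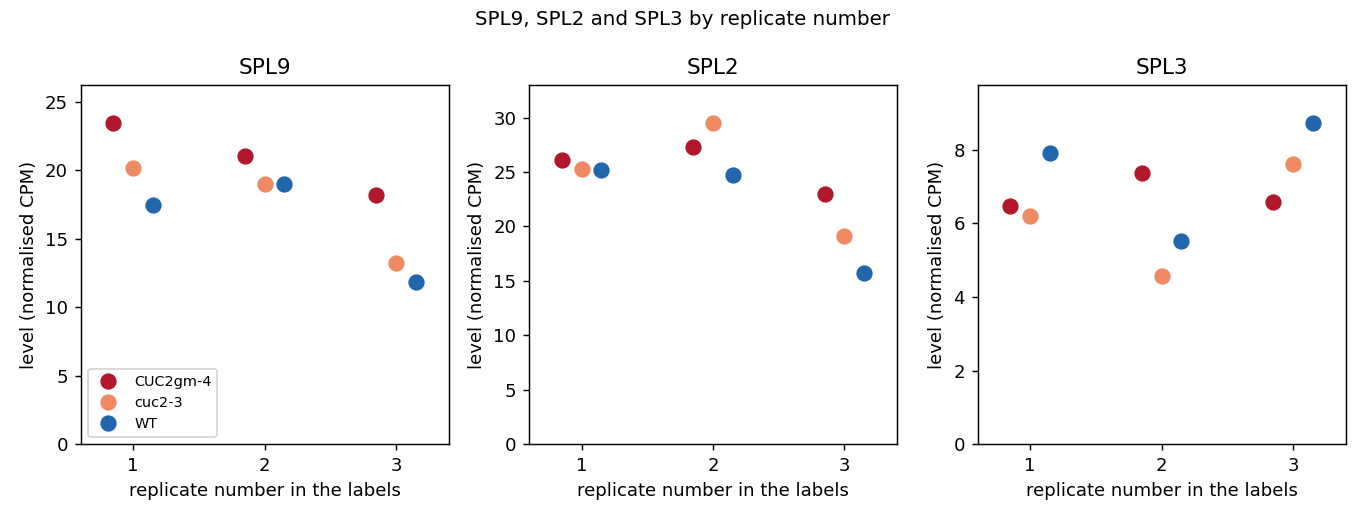
Levels of SPL9, SPL2 and SPL3 (normalised CPM) by replicate number, a point per library and a colour per genotype. SPL9 and SPL2 are lowest at number 3 in all 3 genotypes, and SPL3 is not.

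Likeness of pattern was measured as Pearson's r of log2 CPM over the 9 libraries, against 18290 other genes, and is given as a description, since the points share library, depth and replicate number. SPL9 was most like LOG7, a cytokinin-activating enzyme gene (r = 0.95), AT2G17140 (0.94) and AT1G68780 (0.93), and these fell to between 0.64 and 0.68 without the 2 libraries farthest from the median. Its r with SPL2 was 0.90 and became 0.31 without those libraries. SPL3 was most like AT2G41200 (0.97), AT3G53490 (0.96) and AT5G44600 (0.96), which stayed between 0.85 and 0.93.

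The libraries were selected for messenger RNA, and the precursors of the small RNAs had few counts. None of 12 miR156 and miR157 precursors, nor of 5 miR172 precursors, reached the count minimum. MIR157C had the most, with 4, 9 and 4 counts in CUC2gm-4, 4, 2 and 9 in cuc2-3 and 2, 10 and 4 in WT, and MIR156C had 1, 3 and 4 in CUC2gm-4, 3, 0 and 3 in cuc2-3 and 3, 5 and 6 in WT. MIR157C overlapped between the genotypes, while MIR156C, scaled to depth, had 0.040, 0.150 and 0.164 normalised CPM in CUC2gm-4, 0.138, 0 and 0.107 in cuc2-3 and 0.187, 0.279 and 0.254 in WT, so that both lines lay below WT without overlap. Of the 18291 genes above the count minimum or exempt from it, 5.74% lay apart and lower in CUC2gm-4 against WT and 2.65% in cuc2-3 against WT. With no count minimum, the log2 fold change of MIR156C was −1.02 (SE 0.83, edgeR quasi-likelihood test with Benjamini-Hochberg adjusted p = 0.899) in CUC2gm-4 against WT and −1.44 (SE 0.87, adjusted p = 1) in cuc2-3 against WT. These rest on 6 counts or fewer a library, and precursor reads are not mature miRNA. MIR172A, a precursor of the small RNA that acts after SPL proteins in the same pathway, had 1, 1 and 7 counts in CUC2gm-4, 1, 0 and 13 in cuc2-3 and 3, 0 and 12 in WT, so that number 3 was highest in every genotype. With no count minimum it passed the test of the replicate number (edgeR quasi-likelihood test, Benjamini-Hochberg adjusted p = 0.0113), at 13 counts or fewer in each library. So did 3026 of the 31556 genes tested in that run, so the pass does not set MIR172A apart.

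Of 8 other SPL genes, 7 were tested and none passed in any comparison, without or with the block. SPL7, a regulator of copper homeostasis, came nearest in CUC2gm-4 against WT, with 36.4, 28.2 and 36.4 normalised CPM in CUC2gm-4 and 26.1, 26.6 and 20.7 in WT, a log2 fold change of 0.46 (SE 0.17, edgeR quasi-likelihood test with Benjamini-Hochberg adjusted p = 0.756). SPL13A had 8 to 38 counts and SPL13B none in any library, and they share 92.4% and 100% of their 100-base windows, so the removal of reads that map equally well to both leaves their level uncertain. No window of the 9 members is shared with another gene.

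Among 8 reported SPL targets, 6 were tested and none passed in any comparison. SOC1, a flowering integrator, had 3.26, 3.89 and 2.54 normalised CPM in CUC2gm-4, 5.83, 4.23 and 4.48 in cuc2-3 and 4.68, 5.08 and 4.91 in WT. CUC2gm-4 lay below both other genotypes without overlap, as did 5.74% of all genes against WT and 5.19% against cuc2-3. The log2 fold change was −0.60 (SE 0.24, edgeR quasi-likelihood test with Benjamini-Hochberg adjusted p = 0.756) in CUC2gm-4 against WT and −0.59 (SE 0.24) in CUC2gm-4 against cuc2-3. Of 6 AP2-like genes, which miR172 represses, none passed. The same held for a list of 11 small RNA and phase change factors, which also counts ETT and ARF4, targets of trans-acting siRNAs. The number with a positive log2 fold change was 10 of 11 in CUC2gm-4 against WT, with a median of 0.27, beside 49.6% of all genes above 0. It was 9 of 11 in cuc2-3 against WT, with a median of 0.16, beside 48.3%, and 8 of 11 in CUC2gm-4 against cuc2-3, with a median of 0.13, beside 50.1%. SGS3, needed for trans-acting siRNAs, had 0.39 (SE 0.14) and DCL1, which processes miRNA precursors, 0.47 (SE 0.23) in CUC2gm-4 against WT. ETT, an auxin response factor gene that trans-acting siRNAs repress, had 51.1, 52.7 and 61.0 normalised CPM in CUC2gm-4 and 42.4, 44.1 and 37.3 in cuc2-3. CUC2gm-4 lay above cuc2-3 without overlap, as did 4.82% of all genes. The log2 fold change of ETT was 0.41 (SE 0.18, edgeR quasi-likelihood test with Benjamini-Hochberg adjusted p = 1). None of 5 CIN-type TCP genes passed by genotype.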

How the data were processed

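Stranded single-end libraries from messenger RNA were sized at 230 bp and read on an Ion Torrent Proton, per the labels' protocols. The deposited values are whole-number counts per gene model, which the authors made with sam2pkm after removing reads with equally good second placements, per the file headers. Per the submitters' processing notes the genome was TAIR10. For the aligner and the strand setting, the sources used here give nothing. Positions and sequences are from RefSeq TAIR10.1, matched by identifier.

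Counts were analysed with edgeR 4.0.16 in R 4.3.3. The count minimum was a CPM of 1 or more in 3 or more libraries, from which the 9 SPL genes were exempt, and 18291 genes were tested. TMM factors were used, and a quasi-likelihood model with genotype as the only factor was fitted to all 9 libraries. Benjamini-Hochberg adjusted p under 0.05 was the threshold. The SE is the log2 fold change over the square root of F. The replicate number was tested with 2 degrees of freedom in the blocked fit. Over all genes tested, libraries with the same number deviated together from their genotype means (r from 0.198 to 0.586 in 9 pairs) while r was −0.477 to 0.188 in the 18 pairs with other numbers, and the numbers were therefore taken to pair libraries. Over the 9 members alone the 2 ranges overlapped, with r from −0.079 to 0.866 for the same number and −0.832 to 0.559 for other numbers. Alternatives were the block, DESeq2 1.42.0, limma-voom (limma 3.58.1), other scalings and count minimums, 2 genotypes at a time and leaving out each library. Floors of 3 counts cover counting error only, as the labels describe no molecular identifiers.

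The members, lists and rules were chosen with earlier results of these data known. Named are all 9 members, CUC2, up to 2 genes per list with the smallest p or any that passed, the precursors with the most counts, and the 3 genes most like SPL9 and SPL3. TCP3, RBCS1A, the other green shoot markers, ARF4 and the opposite-strand genes were named after their values were seen.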

Additional observations from a re-analysis of the deposited data

How the results depend on the processing

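None of the 9 SPL genes passed in any comparison or alternative run. Of the member values under the alternatives, 470 kept their direction and 16 turned it. Leaving out each library in turn, the log2 fold change in CUC2gm-4 against WT ran from −0.26 to 0.045 for SPL11, −0.012 to 0.39 for SPL6 and −0.29 to 0.017 for SPL3. In cuc2-3 against WT it ran from −0.069 to 0.29 for SPL9, −0.26 to 0.15 for SPL6, −0.029 to 0.33 for SPL2 and −0.042 to 0.21 for SPL11. In CUC2gm-4 against cuc2-3 it ran from −0.10 to 0.20 for SPL2, −0.064 to 0.15 for SPL10, −0.021 to 0.34 for SPL3 and −0.37 to 0.13 for SPL4. With the replicate block and without WT 1, chosen after seeing the data, SPL6 in CUC2gm-4 against WT was −0.088.

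The count over all genes moved more. In CUC2gm-4 against WT it was 3, against 35 with the replicate block, 81 with DESeq2, 9 with no count minimum, 6 with only the 2 genotypes compared, 6 with the block and without WT 1, and 2 to 8 with a library left out (8 without cuc2-3 3, 5 without WT 3). In CUC2gm-4 against cuc2-3 it was 3, against 7 with the replicate block, 25 with DESeq2 and 6 with the block and without WT 1. In cuc2-3 against WT it was 4, and 14 with DESeq2. For the replicate number it was 797, against 3026 with no count minimum and 195 (without cuc2-3 3) to 1261 (without cuc2-3 1) with a library left out. The cause was not tested. The paired fit changed no call on a member. SPL4 and SPL5, at 17 to 79 counts a library, are the members whose intervals reach furthest.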
